A study of Mus musculus with 30 samples.

Results

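The unfolded protein response and the integrated stress response were followed here through 37 genes, taken by symbol from a table of read counts with 25611 gene rows. Each of the 37 symbols stood in 1 row, and all 37 passed the filter on low counts. RNA was sequenced from cultures of mouse bone marrow kept for 6 to 7 days with FLT3L (200 ng/ml), the growth factor that drives precursors towards dendritic cells. The mice were Rubcn KO or Rubcn WT. Rubcn encodes Rubicon, a protein needed for the form of non-canonical autophagy in which LC3 is placed on phagosomes. Cells of each genotype received no treatment, OVA protein (ovalbumin, a soluble model antigen) or apoptotic Jurkat cells, each left on for 30 min or 4 h. Jurkat is a human T-cell leukaemia line, so the dying cells were of another species. Each of these 10 groups held 3 libraries. The labels carry no time for the untreated cells, and they do not say whether the 3 libraries of a group came from separate mice or cultures, so p-values measure only the spread between these libraries, which may be technical.

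The endoplasmic reticulum (ER) folds secreted and membrane proteins. When unfolded proteins collect there, 3 membrane sensors respond: PERK (Eif2ak3), IRE1 (Ern1) and ATF6 (Atf6). IRE1 splices the Xbp1 transcript, ATF6 is cut to release a transcription factor, and together they raise chaperones, disulfide isomerases and the machinery that exports misfolded proteins for degradation. PERK, with other kinases that sense amino acid shortage, viral RNA or haem shortage, phosphorylates the translation factor eIF2alpha, which slows protein synthesis in general and favours translation of ATF4. ATF4 in turn raises enzymes of amino acid supply and regulators such as Ddit3 (CHOP), and the phosphatase subunit GADD34 (Ppp1r15a) restores translation. Dendritic cells are known to keep the IRE1 and XBP1 branch active without added stress.

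Stretches of promoter are shown for 12 members because the letters that define known response elements stand in them. Promoters were read from RefSeq on the mouse build GRCm38.p6, from 250 bases before to 50 bases after each start, and 34 of the 37 members matched the table, leaving out Hyou1, Atf6 and Manf. Both strands were searched for the ER stress response element (ERSE, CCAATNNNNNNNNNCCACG), its shorter form ERSE-II (ATTGGNCCACG), the unfolded protein response element (UPRE, TGACGTGG) and the C/EBP-ATF response element (CARE, TGATGNAA). ERSE and ERSE-II are known targets of ATF6 with NF-Y, the UPRE of XBP1, and the CARE of ATF4 with a C/EBP partner. Sequences run 5′ to 3′ on the gene's own strand, positions are counted from the start site, and capitals mark the fixed letters of each motif on either strand.
The 8 members whose promoter held an ERSE are as follows.
Hspa5, chr2:34772013-34772055, plus strand, positions -77 to -35: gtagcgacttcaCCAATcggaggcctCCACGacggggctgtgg
Calr, chr8:84847063-84847105, minus strand: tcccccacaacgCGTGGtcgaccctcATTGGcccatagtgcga
Canx, chr11:50325788-50325830, minus strand: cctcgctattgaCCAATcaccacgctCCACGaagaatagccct
Creld2, chr15:88819508-88819550, plus strand: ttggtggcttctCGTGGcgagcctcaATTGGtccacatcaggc
Dnajc3, chr14:118937815-118937857, plus strand: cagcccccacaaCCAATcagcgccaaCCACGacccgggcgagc
Pdia6, chr12:17266479-17266521, plus strand: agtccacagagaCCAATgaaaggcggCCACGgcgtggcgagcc
Syvn1, chr19:6046520-6046562, plus strand: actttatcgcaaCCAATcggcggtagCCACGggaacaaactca
Hsp90b1, with 2 copies, chr10:86705521-86705668, minus strand: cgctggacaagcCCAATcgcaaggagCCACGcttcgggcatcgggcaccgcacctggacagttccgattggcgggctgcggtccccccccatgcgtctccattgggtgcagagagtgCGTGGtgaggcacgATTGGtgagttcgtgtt
Herpud1 held both a CARE and, further towards its start, an ERSE-II, shown in that order.
Herpud1, chr8:94386305-94386399, plus strand: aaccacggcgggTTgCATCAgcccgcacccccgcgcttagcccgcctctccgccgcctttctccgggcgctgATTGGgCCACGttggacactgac
The CARE stood in 5 promoters, and the 3 others in which it lay before the start site are shown. In Trib3 it lay after the start site, at positions 15 to 22, as did the ERSE-II of Dnajb11, at 8 to 18. Neither of these is shown.
Asns, chr6:7693213-7693244, minus strand: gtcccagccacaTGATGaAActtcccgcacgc
Chac1, chr2:119351037-119351068, plus strand: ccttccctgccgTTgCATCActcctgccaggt
Nupr1, chr7:126625561-126625592, minus strand: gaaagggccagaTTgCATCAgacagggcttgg
An ERSE was found in a promoter of 23.5% of the 34 members and of 37 of 27025 genes in all, 0.137%. The ERSE-II stood in 2 members, Dnajb11 and Herpud1 (5.88%), against 0.0444% of all genes. The CARE stood in Asns, Chac1, Herpud1, Nupr1 and Trib3 (14.7%), against 4.51% of all. The UPRE letters were in no member's window and in a promoter of 0.714% of all genes. No member's window held both an ERSE and an ERSE-II. These genes were listed as known members of the pathways, so the shares describe the list, and a match is a string of letters and not a measured site.

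Depth ranged from 9.73 M counts (KO, OVA 30 min, replicate 3) to 51.6 M, with a median of 44.9 M. General dendritic cell markers summed to between 14812 and 28671 CPM (counts scaled to the size of the library) over the 30 libraries, with none at 0. Rubcn itself, which checks the genotype labels, averaged 98.9 CPM in the WT and 72.8 CPM in the KO without treatment, and the 2 genotypes did not overlap in any of the 5 conditions. Most of its reads remained in the KO, and the labels do not give which part of the gene is deleted. Levels below are CPM on library sizes scaled by TMM, in the order of replicates 1, 2 and 3. A gene was called where edgeR's quasi-likelihood F test gave a Benjamini-Hochberg adjusted p (FDR) under 0.05 over the 14808 genes tested, in 1 model of all 30 libraries. All treatments of a genotype were set against the same 3 untreated libraries of that genotype, so calls that recur across treatments are not independent. In this bulk RNA, fewer cells of a type and less RNA per cell cannot be told apart.

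Apoptotic Jurkat cells for 4 h gave the broadest change in the 2 responses. In WT cells 27 of the 37 members rose and 6 fell, and in KO cells 25 rose and 7 fell. Over all genes, this contrast called 79.5% in WT, with 38.9% up and 40.6% down, and 78.5% in KO, with 37.5% up and 41.0% down, so a call by itself says little about a member here, whereas the split between directions and the sizes describe the list. The members' median log2 fold change was 0.57 in WT and 0.45 in KO, beside -0.02 and -0.03 over all genes. Of the 37 members, 13 in WT and 10 in KO were called and moved at least 2-fold, beside 29.8% and 26.4% of all genes. The members' share was near that of all genes in KO and somewhat above it in WT. Of the calls, 31 were shared by both genotypes with the same direction, 25 higher and 6 lower. Xbp1 and Phgdh were called in WT alone and Atf6 in KO alone. Dnajc3, a co-chaperone, Pdia4, a disulfide isomerase, and Sesn2, a sestrin that restrains mTORC1, were called in neither. Without any single library, 32 of the 33 WT calls and all 32 KO calls held. The exception was Dnajb9 in WT, a co-chaperone of BiP, at 0.15 (FDR 0.0395), which was lost without 4 of the 6 libraries involved, with an FDR of up to 0.151.

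The size of these values depends on the scaling. TMM factors were 0.765 to 0.842 in the Jurkat 4 h libraries and 1.03 to 1.07 in the others. With total counts in place of TMM, the median of all genes at 4 h of Jurkat cells moved to -0.42 in WT and -0.37 in KO. The members called then split into 21 higher and 14 lower in WT and 20 higher and 13 lower in KO. Of the calls made with TMM, 28 of 33 in WT and 29 of 32 in KO kept their sign. Those that turned were the smaller rises, namely Xbp1, Hsp90b1, Dnajb9, Phgdh and Shmt2 in WT and Hsp90b1, Dnajb9 and Shmt2 in KO. The large rises kept their direction, with Ppp1r15a at 2.68, Chac1 at 3.03, Hspa5 at 1.10 and Atf4 at 0.70 in WT. Total counts lower all values in this contrast, so the falls could not turn, and only the rises were put to a test. Of these, 22 of 27 in WT and 22 of 25 in KO stayed above 0.

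**Figure D1:**
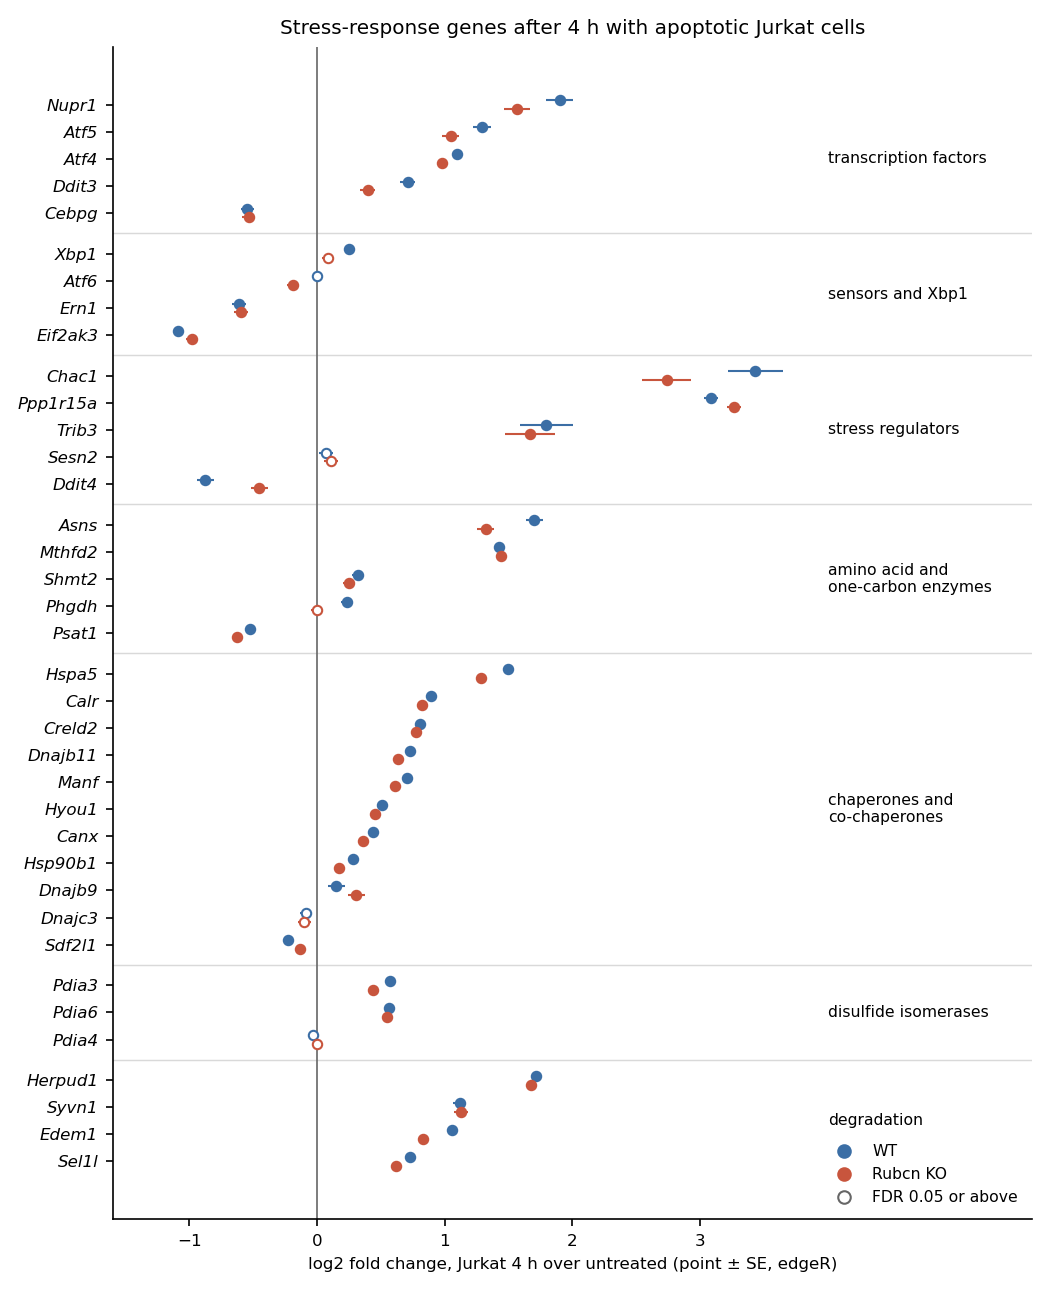
Log2 fold change (± SE) of all 37 members after 4 h of apoptotic Jurkat cells against untreated cells, ordered by role, in WT (blue) and KO (red), with open symbols where FDR was 0.05 or more. Chac1 and Ppp1r15a lie farthest to the right, the degradation genes all lie above 0, and Eif2ak3, Ddit4, Ern1, Cebpg and Psat1 lie below it in both genotypes.

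**Figure D2:**
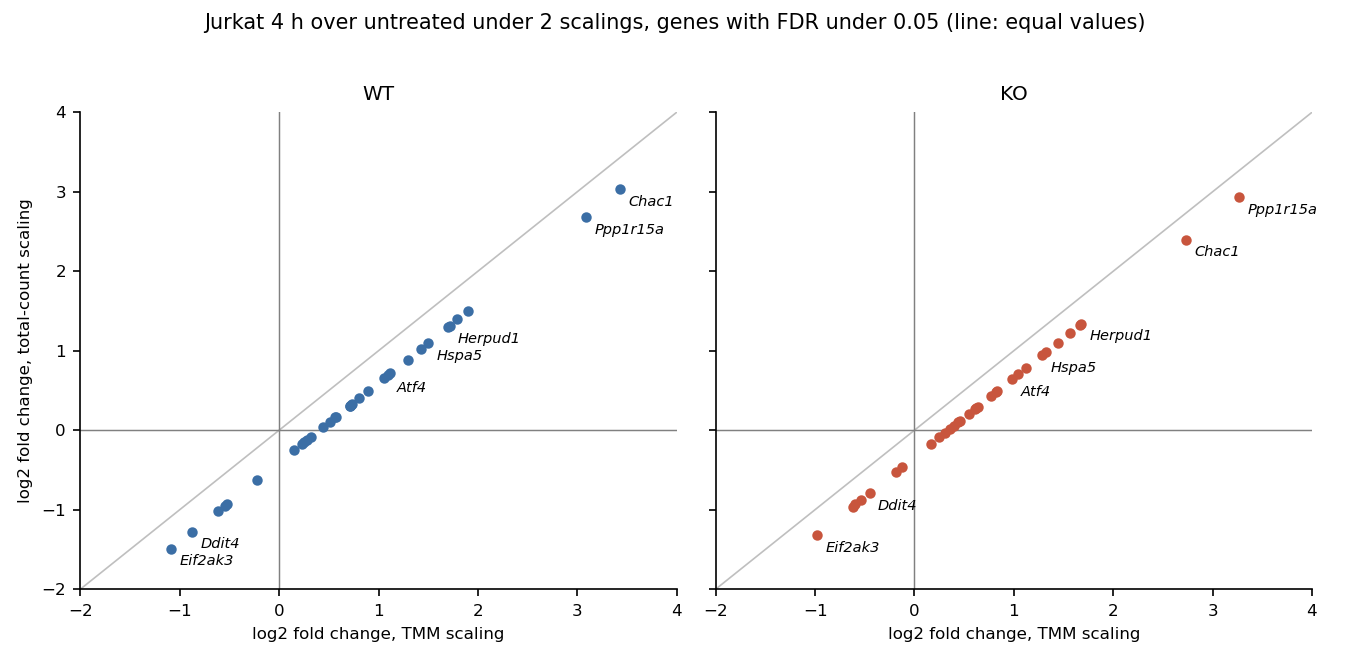
Log2 fold change of the called members at 4 h of Jurkat cells with TMM scaling (x axis) and with total-count scaling (y axis), in WT (33 members) and KO (32 members). All points are shifted downwards by a similar amount, so that only rises near 0 change sign.

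Reads that map to T-cell genes rose in the same libraries. Of 30 markers of the T lineage, to which the added Jurkat cells belong, 16 stood under 1 CPM in every untreated library. Without treatment those 16 summed to a mean of 4.02 CPM in WT cells, with 4.70 CPM in KO cells. After 4 h of Jurkat cells the sum was 90.6 to 120.3 CPM in WT and 67.2 to 85.9 CPM in KO. At 30 min the WT libraries held 41.8 to 44.1 CPM and the KO libraries 20.4 to 30.7 CPM, and the OVA libraries at most 5.15 CPM. KO cells thus held 0.631 times the WT sum at 30 min and 0.686 times at 4 h. Of the 28 markers tested, 24 rose and 4 fell in WT and 20 rose and 5 fell in KO at 4 h. Other marker lists moved in this contrast too. In WT 10 of 14 tested B and plasma cell markers rose and 2 fell, 8 of 12 stromal markers rose and 1 fell, and 9 of 13 monocyte or macrophage markers rose and 3 fell. Of the markers of conventional dendritic cells, 2 of 9 rose and 6 fell for type 1 and 2 of 10 rose and 7 fell for type 2. In KO these counts were 9 and 2, 9 and 0, 9 and 3, 2 and 7, and 2 and 6. From untreated to 4 h, the summed B and plasma cell markers went from 211 to 217 CPM over the WT libraries to 222 to 237 CPM, and from 211 to 222 CPM over the KO libraries to 247 to 256 CPM. Those of type 1 conventional dendritic cells went from 1339 to 1350.0 CPM to 867 to 922 CPM in WT, and from 1307 to 1351 CPM to 807 to 906 CPM in KO. For type 2 the WT ranges were 1799 to 1850.4 CPM and then 1518 to 1671 CPM, and the KO ranges 1843 to 1999 CPM and then 1597 to 1688 CPM. Monocyte or macrophage markers ranged from 4274 to 4759 CPM and then from 4083 to 4498 CPM in WT, and from 4411 to 5125 CPM and then from 4158 to 4559 CPM in KO. Stromal markers summed to 1454 to 1651 CPM in WT and 1871 to 2264 CPM in KO at 4 h. None of the markers in these 5 lists was at 0 in these groups. Human reads that map to mouse genes would add to the members' counts, and the part that this, or a change in the makeup of the cells, had in the results was not tested.

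Among the transcription factors, Atf4, Atf5, Ddit3 and Nupr1 rose and Cebpg fell in both genotypes. Atf4 (Entrez 11911, mm10 chr15:80255184-80257545) carried 172, 182 and 181 CPM in untreated WT libraries and 394, 372 and 379 CPM after 4 h of Jurkat cells. In KO it went from 171, 181 and 179.7 CPM to 350.5, 353 and 348 CPM. All treated libraries lay above all untreated ones, 2.14-fold in WT (log2 1.10, SE 0.04, FDR 2.67e-21) and 1.97-fold in KO (FDR 4.11e-20). ATF4 protein is set largely by translation, which these counts do not measure. Nupr1, a small stress-induced chromatin protein, had 2.87, 3.49 and 3.47 CPM in untreated WT and 12.3, 11.5 and 12.9 CPM after treatment (log2 1.90), and its log2 change was 1.57 in KO. Atf5, a relative of ATF4, changed by 1.29 in WT and 1.05 in KO.

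Ddit3 (chr10:127290793-127296288), which encodes the pro-apoptotic factor CHOP, moved less. Its WT libraries held 13.6, 13.1 and 14.2 CPM untreated and 21.9, 22.8 and 22.3 CPM after 4 h of Jurkat cells (log2 0.71, SE 0.06, FDR 6.75e-12). KO libraries held 13.8, 15.1 and 14.2 CPM and then 19.6, 18.5 and 18.6 CPM (log2 0.40, FDR 6.98e-07). The treated libraries of each genotype stood above the untreated ones, and the treated KO libraries all stood below the treated WT ones. With total counts the KO value was 0.06 and no longer called. Ddit3 shares 68 bases with the gene Mars, and the library kit does not mark strand, so reads there cannot be assigned to one of them. The same limit holds for longer shared stretches of other members. Among these were 571 bases of Atf5 with Nup62 and 289 with Gm21948, and 4652 bases of Dnajb11 with Gm30505. Cebpg, a C/EBP protein that pairs with ATF4, fell from 88.8, 79.8 and 79.8 CPM to 57.7, 58.5 and 54.0 CPM in WT (log2 -0.55), and its KO value was -0.54.

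The transcripts of the 3 sensors did not rise with their targets. Eif2ak3 (chr6:70844515-70905241), which encodes PERK, had 74.4, 76.3 and 75.1 CPM in untreated WT libraries and 34.9, 37.9 and 33.5 CPM after 4 h of Jurkat cells. In KO it had 79.2, 75.1 and 78.1 CPM and then 40.9, 38.5 and 38.1 CPM. This was the largest fall among the members in both genotypes, at -1.09 in WT (FDR 6.11e-19) and -0.98 in KO (FDR 5.28e-18), with no overlap between treated and untreated libraries. Ern1, which encodes IRE1alpha, fell from 89.7, 87.6 and 97.6 CPM to 60.8, 63.0 and 55.9 CPM in WT (-0.61, FDR 7.33e-11). In KO it fell from 85.6, 82.1 and 88.1 CPM to 60.1, 53.3 and 55.9 CPM (-0.60, FDR 1.48e-10). Atf6 stood at 289, 287 and 292 CPM in untreated WT cells and at 281, 321 and 269 CPM after treatment, which overlap (log2 0.00). In KO it fell from 296, 279.8 and 281 CPM to 259.5, 242 and 250.1 CPM (-0.19, FDR 3.47e-04).

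Xbp1, the factor made active by IRE1, was at 316, 321 and 320.0 CPM in untreated WT libraries and at 377, 402 and 359.7 CPM after 4 h of Jurkat cells (log2 0.25, FDR 2.87e-06). In KO cells it was at 312, 299.8 and 306 CPM and then at 329.7, 305 and 338 CPM, which overlap, and no change was called (0.08). Gene counts do not separate spliced from unspliced Xbp1, so its activation was not measured. With total counts the WT value turned to -0.15.

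The stress regulators held the members with the largest rises. Ppp1r15a (Entrez 17872, chr7:45522917-45526268), which encodes GADD34, had 20.9, 23.9 and 23.5 CPM in untreated WT libraries and 193, 189 and 198 CPM after 4 h of Jurkat cells. In KO it had 19.6, 19.2 and 19.0 CPM and then 185, 185 and 188 CPM. The rise was 8.49-fold in WT (log2 3.09, SE 0.05, FDR 1.22e-27) and 9.64-fold in KO (log2 3.27, SE 0.05, FDR 5.01e-28), and the libraries of a group lay close together. Ppp1r15a overlaps Tulp2, whose reads cannot be told apart from its own in the shared stretch.

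Chac1, which degrades glutathione and is a target of ATF4, rose from 0.423, 0.604 and 0.674 CPM to 6.19, 6.28 and 6.07 CPM in WT (log2 3.43, SE 0.21, FDR 7.26e-15). In KO it rose from 0.903, 0.954 and 1.18 CPM to 5.99, 7.49 and 6.86 CPM (log2 2.74, SE 0.19, FDR 1.31e-13). Its median coefficient of variation within groups, 17.9%, was the highest among the members. Trib3, a pseudokinase that binds ATF4 and CHOP, went from 1.07, 0.819 and 1.33 CPM to 3.86, 3.20 and 4.15 CPM in WT (log2 1.79) and from 1.39, 1.14 and 1.26 CPM to 4.17, 4.66 and 3.21 CPM in KO (log2 1.67). Its median coefficient of variation was 15.7%, whereas it was 1.39% to 5.48% for the 34 members other than Chac1, Trib3 and Nupr1 (8.30%). Both genes were low in counts, and their treated and untreated libraries did not overlap.

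Ddit4 (chr10:59949675-59951770), which encodes REDD1, an inhibitor of mTORC1 that stress usually raises, went the other way. It fell from 27.6, 28.8 and 28.3 CPM to 15.3, 15.0 and 16.0 CPM in WT (-0.87, FDR 8.49e-13). In KO it fell from 29.8, 28.5 and 27.9 CPM to 18.5, 23.5 and 20.9 CPM (-0.45, FDR 2.58e-07). The fall was smaller in KO libraries, all 3 of which stayed above the treated WT libraries.

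Enzymes of amino acid and one-carbon supply were split. Asns (Entrez 27053, chr6:7675171-7693182), asparagine synthetase, rose from 6.48, 7.48 and 6.90 CPM to 22.6, 22.8 and 22.5 CPM in WT (log2 1.70). In KO it rose from a higher start of 10.5, 10.1 and 9.38 CPM to 23.9, 26.3 and 24.7 CPM (log2 1.32). Mthfd2, the mitochondrial folate enzyme, rose from 80.1, 81.3 and 82.3 CPM to 212, 224 and 217 CPM in WT (log2 1.42), with 1.44 in KO. Of the serine pathway, Psat1 fell from 60.9, 62.9 and 62.1 CPM to 42.8, 42.3 and 44.4 CPM in WT (-0.52) and from 63.8, 66.6 and 64.5 CPM to 42.5, 41.9 and 42.0 CPM in KO (-0.62). Phgdh, the first enzyme of that pathway, was called higher in WT (0.23) and not in KO (0.00), and Shmt2 changed by 0.32 and 0.25. With total counts Phgdh in WT and Shmt2 in both genotypes turned negative.

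Of the 11 ER chaperones and co-chaperones, 9 rose, 1 fell and 1 was not called in each genotype, with medians of 0.51 in WT and 0.45 in KO. Hspa5 (Entrez 14828, chr2:34772090-34776529), which encodes BiP, the chaperone that holds the sensors inactive, had 896, 931 and 886 CPM in untreated WT libraries and 2523, 2656 and 2489 CPM after 4 h of Jurkat cells. In KO it had 936, 917 and 879 CPM and then 2276, 2169.7 and 2212 CPM. This was 2.83-fold in WT (log2 1.50, SE 0.04, FDR 2.04e-23) and 2.44-fold in KO (log2 1.29, FDR 7.71e-22). Next came the lectin chaperone Calr (0.89 in WT, 0.82 in KO), Creld2 (0.81 and 0.77), Dnajb11 (0.72 and 0.64) and the secreted stress protein Manf (0.71 and 0.61). Hyou1, the nucleotide exchange factor of BiP, changed by 0.51 and 0.45, and Canx, calnexin, by 0.44 and 0.36. Hsp90b1, the ER form of HSP90, changed by 0.28 and 0.17, and Dnajb9 by 0.15 and 0.31. Sdf2l1 was the member that fell, at -0.23 in WT and -0.13 in KO, and its KO call was lost with DESeq2, with DESeq2 size factors and with the stricter filter on low counts. With total counts Canx was no longer called, and Hsp90b1 and Dnajb9 turned negative, in both genotypes.

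Disulfide isomerases Pdia3 (0.57 in WT, 0.44 in KO) and Pdia6 (0.56 and 0.54) rose, and Pdia4 was not called. All 4 genes of ER-associated degradation rose in both genotypes, with medians of 1.09 and 0.98. Herpud1 (Entrez 64209, chr8:94386429-94395371), which gathers the degradation complex, rose from 189, 191 and 197 CPM to 641, 644 and 610.2 CPM in WT (3.28-fold, log2 1.72, SE 0.04, FDR 1.18e-24). In KO it rose from 186, 179 and 181 CPM to 587, 564 and 596 CPM (3.20-fold, log2 1.68, FDR 2.18e-24). Syvn1, the ubiquitin ligase HRD1, changed by 1.12 in WT and 1.13 in KO, and its partner Sel1l by 0.73 and 0.62. Edem1, which hands over misfolded glycoproteins, rose from 328, 319 and 325 CPM to 649, 736 and 638 CPM in WT (1.06). In KO it rose from 322, 316 and 318 CPM to 566, 553 and 578 CPM (0.83).

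Set beside the promoter stretches above, the 5 members with a CARE in the window were 5 of the 6 largest rises in WT, together with Ppp1r15a, and 5 of the 7 largest in KO. Of the 8 members with an ERSE, 7 had a positive fold change in WT, as did 29 of all 37 members. These ran from Hspa5 at 1.50 and Syvn1 at 1.12 down to Hsp90b1 at 0.28, which turned negative with total counts, and Dnajc3 was not called. This order was noticed after the values were seen and is given without a test.

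**Figure D3:**
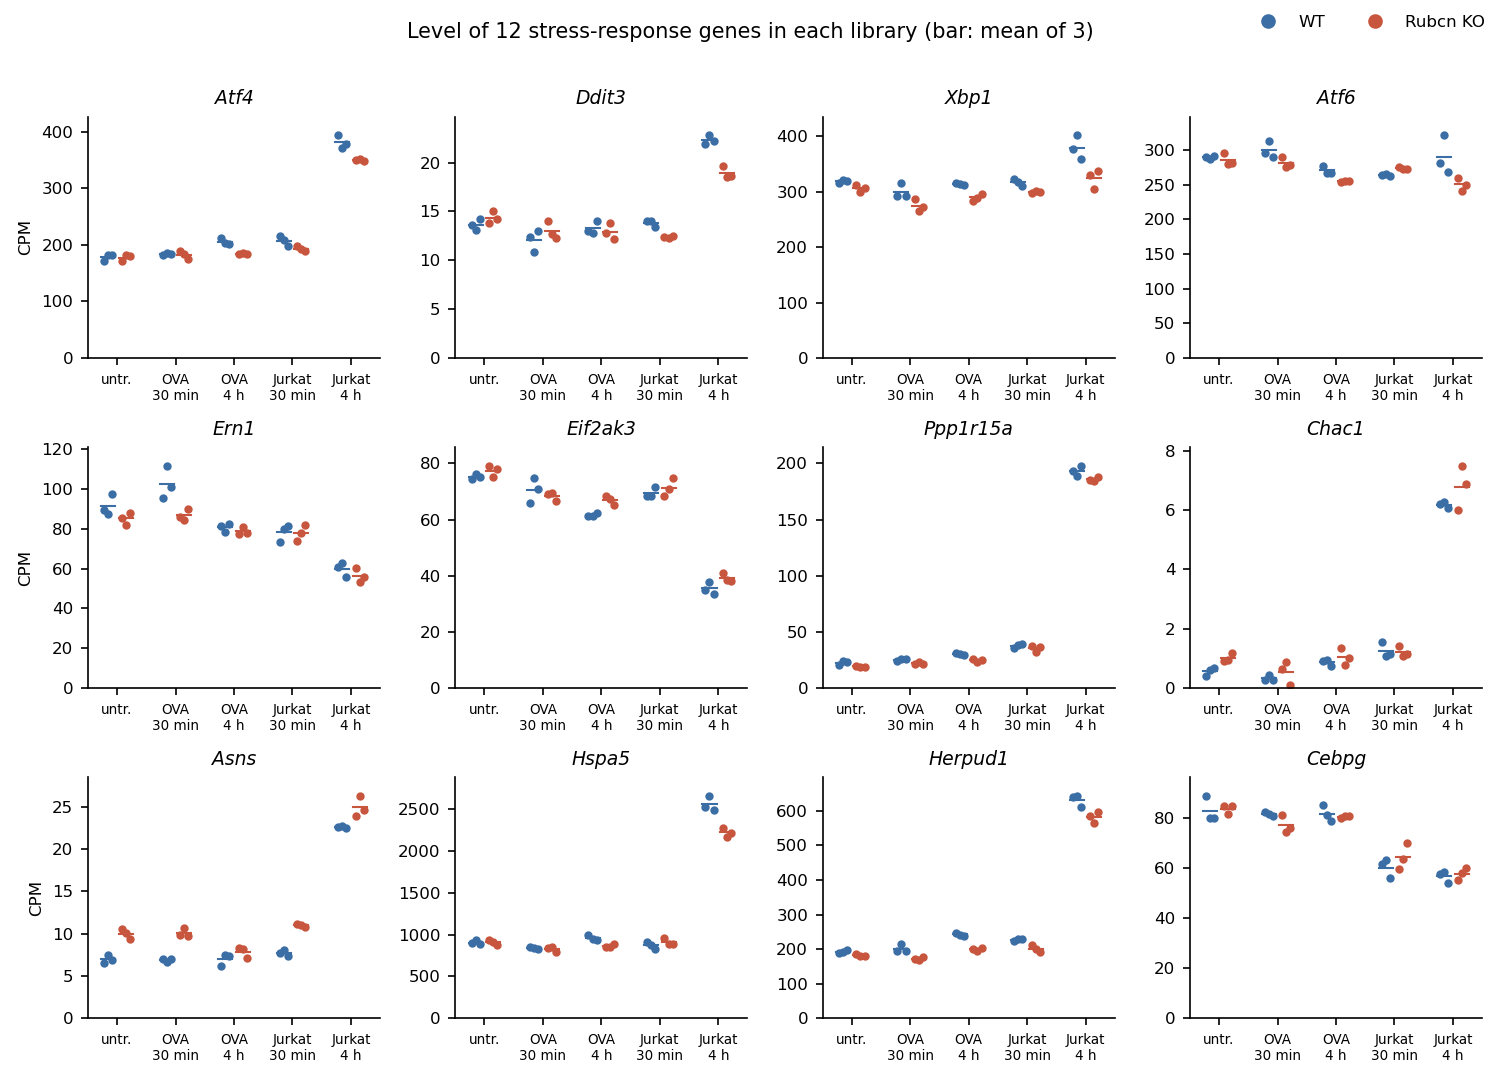
CPM in each of the 30 libraries for 12 members (y axis starting at 0, scaled per gene), by condition, with WT in blue, KO in red and a bar at the mean of 3. Atf4, Ppp1r15a, Chac1, Asns, Hspa5 and Herpud1 stand highest after 4 h of Jurkat cells, Eif2ak3, Ern1 and Cebpg lowest, and Asns is higher in KO than in WT libraries when untreated.

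At 30 min of Jurkat cells fewer members were called than at 4 h. Chac1 and Ppp1r15a changed most in WT, and in KO Ppp1r15a had the largest rise and Cebpg the largest fall. In WT 7 members rose and 8 fell, beside 14.2% and 14.5% of all genes (28.7% called), and in KO 3 rose and 4 fell, beside 8.72% and 8.26% (17.0% called). Called in the same direction in both genotypes were Ppp1r15a, Herpud1 and Atf4 upwards and Cebpg, Syvn1 and Pdia4 downwards. Ppp1r15a already stood at 35.8, 38.3 and 38.9 CPM in WT and at 37.6, 32.4 and 36.97 CPM in KO (log2 0.73, FDR 4.79e-11, and 0.89, FDR 1.15e-12), above all untreated libraries. Cebpg had already reached 61.4, 63.3 and 55.8 CPM in WT and 59.6, 63.6 and 70.1 CPM in KO (-0.46, FDR 1.29e-07, and -0.38, FDR 6.32e-06), close to its level at 4 h. Chac1 stood at 1.55, 1.08 and 1.15 CPM in WT (log2 1.14, FDR 0.00102), and it was not called in KO. Sesn2 had 43.4, 44.5 and 44.4 CPM in WT against 36.3, 35.2 and 39.2 CPM untreated (0.26).

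The 30 min rises of the other members were slight, with Herpud1 at 0.24 in WT and 0.14 in KO, Atf4 at 0.21 and 0.12, and Manf and Dnajb11 at 0.12 and 0.11 in WT. Further falls in WT were Ern1 (-0.23), Dnajc3 (-0.15), Hyou1 (-0.14), Atf6 (-0.14) and Eif2ak3 (-0.11), and Ddit3 was called lower in KO (-0.22). Without any single library, 9 of the 15 WT calls held, namely Atf4, Chac1, Sesn2, Ppp1r15a, Herpud1, Ern1, Pdia4, Syvn1 and Cebpg. In KO 2 of 7 held, Ppp1r15a and Cebpg, and the KO count was 4 without KO Jurkat 30 min replicate 1 or without untreated KO replicate 2. No member's 30 min response differed between the genotypes by edgeR or by DESeq2. An unadjusted p under 0.05 was reached by 3 members, and 0.00675% of all genes were called.

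OVA protein for 4 h, without dying cells, called 8 members higher and 3 lower in WT (23.5% of all genes called, 11.9% higher and 11.7% lower). It called 5 higher and 4 lower in KO (11.6% of all, 5.94% higher and 5.69% lower). The largest rise was in Nupr1, which reached 5.56, 4.90 and 5.70 CPM in WT (log2 0.72, FDR 1.43e-05) and 5.37, 5.17 and 5.29 CPM in KO (0.37, FDR 0.0230). Ppp1r15a reached 31.0, 30.2 and 29.3 CPM in WT (0.41, FDR 2.18e-06) and 25.7, 23.3 and 25.3 CPM in KO (0.36, FDR 5.20e-05). Herpud1 reached 247, 242 and 239 CPM in WT (0.34, FDR 3.80e-07) and 201, 193 and 204 CPM in KO (0.13), and all of these lay above their untreated libraries. Mthfd2 changed by 0.21 and 0.15, and Atf4 (0.21), Shmt2 (0.16), Dnajb11 (0.13) and Calr (0.12) were called in WT and not in KO. Eif2ak3 fell in both genotypes, to 61.4, 61.3 and 62.3 CPM in WT (-0.29) and 68.6, 67.5 and 65.4 CPM in KO (-0.21).

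In WT cells Ern1 (-0.18) and Pdia4 (-0.17) were also lower after 4 h of OVA. In KO cells Ddit4 was higher, at 32.3, 35.1 and 35.8 CPM (0.26), and Asns fell to 8.29, 8.13 and 7.14 CPM (-0.34), with Atf6 (-0.16) and Psat1 (-0.12) lower too. Without any single library 9 of the 11 WT calls held, all but Ern1 and Shmt2. In KO 4 of 9 held (Ddit4, Ppp1r15a, Asns and Eif2ak3), and without KO OVA 4 h replicate 1 the count was 4. No member's 4 h OVA response differed between genotypes by edgeR or by DESeq2, although 9 members had an unadjusted p under 0.05 and 0.0405% of all genes were called. The smallest were Herpud1 at -0.20 (p 0.00143 before and 0.327 after adjustment in edgeR) and Asns at -0.36 (p 0.00152 and 0.327).

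At 30 min of OVA, 4 members were lower and none higher in WT (10.7% of all genes called, 5.51% higher and 5.15% lower), Pdia4 (-0.23), Creld2 (-0.19), Syvn1 (-0.17) and Sdf2l1 (-0.13). Pdia4 went from 171, 175 and 176 CPM to 145, 155 and 144 CPM. It and Creld2 were the WT calls that held without any single library, and without untreated WT replicate 2 the count was 2. In KO, Ppp1r15a was higher (0.21) and Dnajb9 (-0.28), Dnajc3 (-0.18), Eif2ak3 (-0.17), Pdia4 (-0.16) and Xbp1 (-0.16) were lower, beside 1.88% of all genes higher and 1.88% lower (3.77% called). No KO call held through every removal of 1 library. The KO count was 0 without KO OVA 30 min replicate 2 or replicate 3, the shallowest library, 2 without untreated KO replicate 1 or 3, and 3 without untreated KO replicate 2. The response did not differ between genotypes for any member by edgeR or DESeq2, 3 members had an unadjusted p under 0.05, and 0% of all genes were called.

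Apoptotic cells were also set directly against OVA, with the genotypes averaged. At 4 h 29 members were higher and 6 lower with Jurkat cells, with 82.6% of all genes called (39.4% higher, 43.2% lower), and the members' median was 0.55 beside -0.04 for all genes. Atf6 and Dnajc3 were the members not called. The largest differences were in Ppp1r15a (2.79, FDR 1.22e-30), Chac1 (2.75), Asns (1.67), Trib3 (1.64), Herpud1 (1.46) and Hspa5 (1.39), and the largest in the other direction in Ddit4 (-0.87), Eif2ak3 (-0.79) and Cebpg (-0.50). All 35 calls held without any single library. With total counts the median of all genes was -0.40 and 21 members were higher and 14 lower, with Sesn2, Xbp1, Hsp90b1, Pdia4, Dnajb9, Phgdh and Shmt2 turning negative. At 30 min 14 members were higher and 4 lower with Jurkat cells (29.9% of all genes called, 15.5% higher and 14.4% lower). The largest positive differences were in Chac1 (1.36), Ppp1r15a (0.62) and Trib3 (0.49), and the largest negative ones in Cebpg (-0.35) and Ern1 (-0.27). Against untreated cells, Chac1 was at -0.77 in WT and -0.55 in KO after 30 min of OVA, neither called. After 30 min of Jurkat cells it was called higher in WT and not in KO. Without any single library 14 of the 18 calls held, and Trib3 was among the 4 lost.

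Between the genotypes, differences were small beside the changes at 4 h of Jurkat cells, whereas at 30 min of OVA more members were called between genotypes than between treated and untreated cells. Untreated KO cells had 5 members higher and 2 lower than WT, where 6.00% of all genes were higher and 3.97% lower (9.97% called). At 30 min of OVA 5 were higher and 5 lower (6.25% and 6.13% of all genes, 12.4% called), and at 4 h of OVA 0 and 6 (6.22% and 6.35%, 12.6% called). With Jurkat cells, 2 were higher and 2 lower at 30 min (5.58% and 3.67%, 9.25% called), and 2 and 10 at 4 h (9.37% and 13.5%, 22.9% called). In all, 22 members were called at least once and 15 never, 11 of the 22 in a single condition, and none in all 5 conditions or in both directions.

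Asns was higher in KO in 3 of the 5 conditions. Untreated KO libraries held 10.5, 10.1 and 9.38 CPM, all above the WT libraries at 6.48, 7.48 and 6.90 CPM (log2 0.52, FDR 9.66e-06). The difference was 0.56 at 30 min of OVA (FDR 9.26e-06, KO 9.82, 10.7 and 9.75, WT 7.01, 6.61 and 7.00 CPM) and 0.52 at 30 min of Jurkat cells (FDR 1.38e-05, KO 11.2, 11.0 and 10.7, WT 7.70, 8.02 and 7.32 CPM). At 4 h it was 0.16 with OVA and 0.14 with Jurkat cells, and neither was called. All 3 calls held without any single library. Atf5 was higher in KO when untreated (0.26, FDR 0.0149) and at 30 min of OVA (0.33, FDR 0.00294), where KO libraries had 16.5, 16.6 and 16.9 CPM and WT libraries 13.4, 12.8 and 13.4 CPM. Of the serine enzymes, Phgdh differed by 0.17, 0.24 and 0.17 in the untreated, OVA 30 min and Jurkat 30 min cells, and Shmt2 by 0.16 and 0.15 in the first 2 of these. Chac1 was called higher in KO untreated (0.83, FDR 0.0383) and at 30 min of OVA (1.04, FDR 0.0337), but the latter groups overlapped, with 0.652, 0.896 and 0.0965 CPM in KO and 0.270, 0.449 and 0.277 CPM in WT. With 1 library left out its FDR reached 0.164 and 0.367.

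Ppp1r15a and Herpud1 were lower in KO. Ppp1r15a differed by -0.24 untreated (FDR 0.00517), -0.18 at 30 min of OVA (FDR 0.0407) and -0.28 at 4 h of OVA (FDR 5.47e-04), and in each of these the 3 KO libraries lay below the 3 WT libraries. The call at 30 min of OVA was lost with total counts (FDR 0.0926), with the stricter filter (0.0616), with a replicate block across genotypes (0.0516), with only the groups compared (0.0815) and without 4 of the 6 libraries: KO replicate 1 (0.166), KO replicate 3 (0.0911), WT replicate 2 (0.153) or WT replicate 3 (0.0835). Herpud1 differed by -0.22 at 30 min of OVA (FDR 6.56e-04), -0.28 at 4 h of OVA (FDR 1.17e-05), -0.17 after 30 min of Jurkat cells (FDR 0.00565) and -0.12 once these had been present for 4 h (FDR 0.0351). At 4 h of OVA Atf4 (-0.16, FDR 0.00388), Mthfd2 (-0.18, FDR 0.00155), Hspa5 (-0.15) and Dnajb11 (-0.12) were lower too. Atf4 then had 185, 186 and 183 CPM in KO against 212, 203 and 202 CPM in WT. Xbp1 (-0.13), Ern1 (-0.25) and Dnajb9 (-0.25) were lower at 30 min of OVA, Mthfd2 (-0.12) when untreated, and Sesn2 (-0.23) at 30 min of Jurkat cells. With total counts the calls of Xbp1 at 30 min of OVA (FDR 0.0639), Dnajb11 at 4 h of OVA (FDR 0.0817) and Mthfd2 when untreated (FDR 0.0739) were lost.

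At 4 h of Jurkat cells Ddit4 (0.44, FDR 3.74e-05) and Eif2ak3 (0.14, FDR 0.0281) were higher in KO. Lower were Edem1 (-0.25, FDR 3.11e-05), Ddit3 (-0.24, FDR 0.00398), Xbp1 (-0.23, FDR 1.94e-04), Atf6 (-0.21, FDR 9.45e-04), Hspa5 (-0.20, FDR 4.92e-04), Hsp90b1 (-0.15), Atf4 (-0.12), Herpud1 (-0.12), Pdia3 (-0.11) and Mthfd2 (-0.10). With total counts Atf4, Ddit3, Hsp90b1, Pdia3, Herpud1 and Mthfd2 were no longer called, 7 members were higher and 4 lower, and the share of all calls that were higher was 74.8% in place of 40.9%. Ddit4, Atf6, Ddit3, Xbp1, Hspa5 and Edem1 were the calls that held without any single library.

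The other genotype calls that held so were Asns and Ppp1r15a untreated, Atf5, Asns, Phgdh and Herpud1 at 30 min of OVA, Atf4, Ppp1r15a, Herpud1 and Mthfd2 at 4 h of OVA, and Asns at 30 min of Jurkat cells. The untreated count of 7 was 2 without KO replicate 2 or WT replicate 1, 3 without WT replicate 2 and 4 without KO replicate 3. The OVA 30 min count of 10 was 6 without KO replicate 2 and 5 without WT replicate 2, and the Jurkat 30 min count of 4 was 2 without KO replicate 3.

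Markers of other cells also differed between the genotypes. The sum over 12 stromal markers was 1318 to 1712 CPM in untreated KO and 1029.5 to 1160.5 CPM in untreated WT libraries, and 7, 8, 6, 7 and 8 of the 12 were called higher in KO, and none lower, in the untreated, OVA 30 min, OVA 4 h, Jurkat 30 min and Jurkat 4 h cells. Basophil or mast cell markers (10 genes, 7 tested) summed to 57.7 to 89.4 CPM in untreated KO and 22.8 to 29.3 CPM in untreated WT libraries, with Cma1, Il4 and Tpsb2 at 0 in some libraries, and 7, 7, 6, 7 and 6 were called higher. Of 14 B and plasma cell markers tested, 5, 6, 4, 3 and 4 were higher in KO and 1, 2, 1, 0 and 0 lower, and their sum in untreated libraries was 211 to 222 CPM in KO and 211 to 217 CPM in WT. Of 15 plasmacytoid dendritic cell markers, 7, 11, 7, 5 and 11 were lower in KO and 1 higher in each condition. The part that such cells had in the members' differences was not tested.

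**Figure D4:**
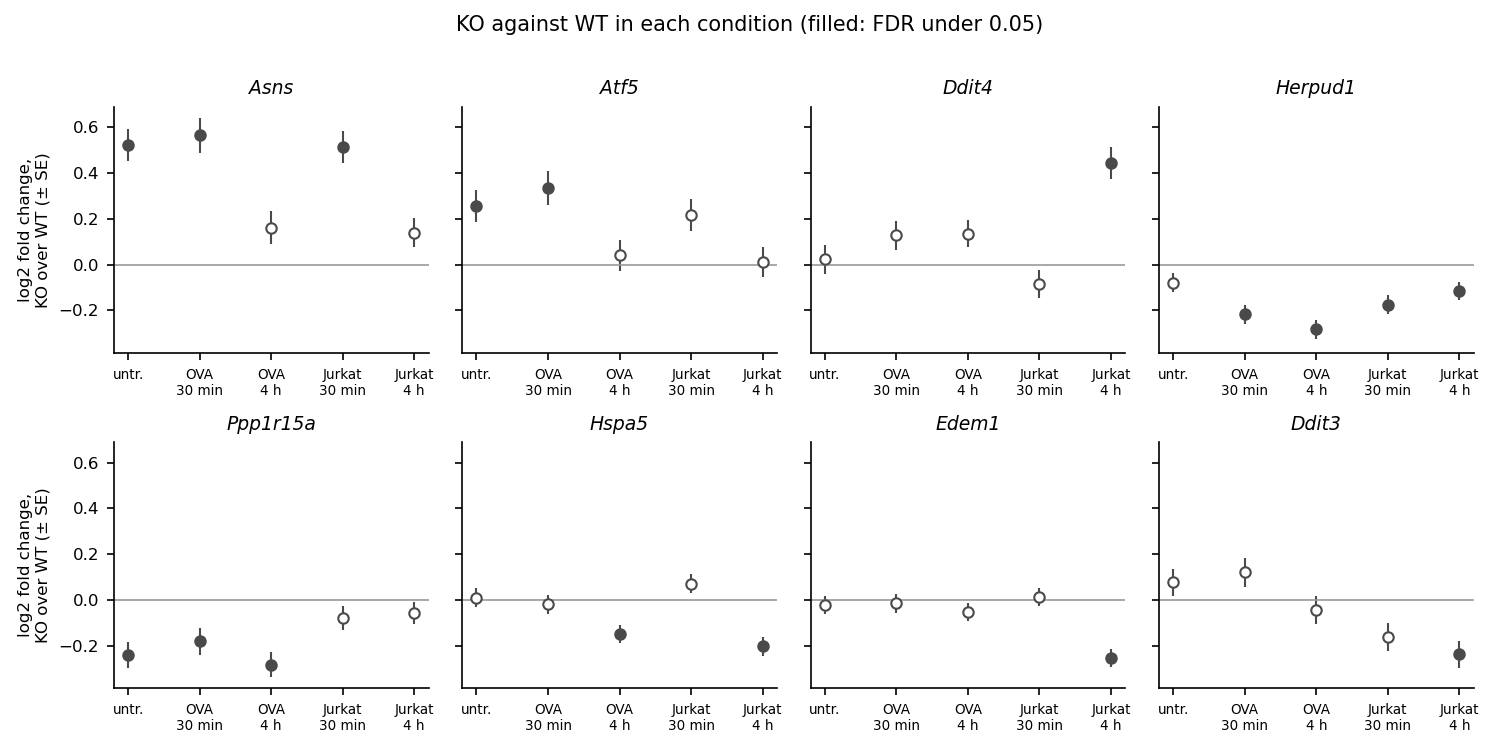
Log2 fold change of KO against WT (± SE) in each of the 5 conditions for 8 members, with filled symbols where FDR was under 0.05. Asns lies near 0.5 in the untreated and both 30 min conditions and nearer 0 at 4 h, Herpud1 lies below 0 throughout, and Ddit4 is raised after 4 h of Jurkat cells.

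Whether the response itself depended on Rubcn was tested as the KO minus the WT change from untreated cells. At 4 h of Jurkat cells 6 members were called, 1 higher and 5 lower in KO, with 4.26% of all genes called (1.72% higher, 2.55% lower). Ddit4 fell less in KO (0.42, SE 0.093, FDR 0.00886). Asns (-0.38, SE 0.095, FDR 0.0203), Ddit3 (-0.31, SE 0.084, FDR 0.0307), Phgdh (-0.23, SE 0.066, FDR 0.0403), Edem1 (-0.23, SE 0.056, FDR 0.0175) and Hspa5 (-0.21, SE 0.057, FDR 0.0301) had the lower change in KO. For Asns and Phgdh the untreated KO level was the higher one, and the treated levels of the genotypes were closer. Only Ddit4 was called without each of the 12 libraries in turn, and the count of 6 was 2 without WT Jurkat 4 h replicate 2 and 3 without KO Jurkat 4 h replicate 3, untreated KO replicate 1 or 2, or untreated WT replicate 1. With total counts Ddit4 (0.49) and Edem1 (-0.16) were called and the other 4 were not. The differences were not called for Chac1 (-0.70, SE 0.31, FDR 0.207), the largest of any member in size and an imprecise one, Ppp1r15a (0.18, SE 0.074, FDR 0.168), Herpud1 (-0.04, SE 0.057, FDR 0.781) and Atf4 (-0.12, SE 0.052, FDR 0.216).

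Related genes outside the 37 were read from 3 further lists. Of 44 other integrated stress response genes, 43 were tested, and after 4 h of Jurkat cells 25 rose and 12 fell in WT (median 0.30) and 22 rose and 14 fell in KO (median 0.13), beside 38.9% higher and 40.6% lower of all genes in WT and 37.5% and 41.0% in KO. The rises with the smallest p were in Jdp2, a repressor of the AP-1 family (3.49 in WT, 3.19 in KO), Atf3, a stress-induced relative of ATF4 (3.05 and 2.45), Slc3a2, the heavy chain of several amino acid transporters (0.95 and 0.88), Eif2ak2, the kinase PKR (2.85 and 3.18), and Slc7a11, the cystine importer (3.93 and 4.31). Among falls were Pck2 (-1.27 and -1.07) and the eIF2alpha kinases Eif2ak1, HRI (-0.51 and -0.44) and Eif2ak4, GCN2 (-0.61 and -0.62). PERK, HRI and GCN2 transcripts thus fell, whereas that of PKR rose, in both genotypes. PKR transcripts started from a lower level in KO, at -0.61 against WT when untreated (FDR 1.23e-04). They were also lower in KO at 30 min (-0.53) and 4 h (-0.73) of OVA. The rise of PKR held with total counts, which lower all values in this contrast and so could not turn the falls. The list as a whole turned with that scaling, to 15 higher and 21 lower in WT and 13 higher and 21 lower in KO. The response was smaller in KO for Atf3 (-0.59, FDR 0.00336) and Ppp1r15b, the constitutive counterpart of GADD34 (-0.18, FDR 0.0358, and 0.119 with total counts). These were the only 2 of 43 called, which is near the 4.26% of all genes called in that test. After 4 h of OVA, 8 rose and 6 fell in WT (11.9% and 11.7% of all genes) and 5 rose and 3 fell in KO (5.94% and 5.69% of all genes), with Gdf15, a secreted stress cytokine, at 1.77 and 0.99, Slc7a11 at 1.51 and 1.22 and Jdp2 at 0.67 and 0.39.

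Other genes of ER folding and export were about evenly split at 4 h of Jurkat cells with TMM and mostly lower with total counts. Of 52, 22 rose and 20 fell in WT (median 0.04) and 23 rose and 20 fell in KO (median 0.02), which is near the shares of all genes given above for this contrast, and with total counts 2 rose and 41 fell in WT and 6 rose and 39 fell in KO. Sec23b, a coat protein of export vesicles, changed by 1.38 and 1.22 and Ssr2 by 0.42 and 0.41 (0.016 and 0.072 with total counts, not called), whereas Erp29 (-1.63 and -1.53), Uggt1, the folding sensor of glycoproteins (-0.75 and -0.82), and Ero1lb, an ER oxidase (-0.61 and -0.70), fell. The heat shock genes of the cytosol and mitochondria leaned upwards, with 20 of 24 higher and 1 lower in WT (median 0.66) and 19 higher and 2 lower in KO (median 0.51), and with total counts 12 higher and 5 lower in WT (median 0.26) and 12 higher and 8 lower in KO (median 0.17). Hspa1a changed by 6.04 and 5.19 and Hspa1b by 4.88 and 4.03, although these 2 are near-identical copies whose split of reads is uncertain. Dnaja1 changed by 1.61 and 1.33 and Fkbp4 by -0.37 and -0.50. Of the 24, 16 were lower and 1 higher in KO than in WT after 4 h of Jurkat cells (10 and 4 with total counts). Over all genes, 13.5% were lower and 9.37% higher there with TMM. The response was smaller in KO for 8 (5 with total counts), among them Hsph1 (-0.53), Hsp90ab1 (-0.31) and Dnajb1 (-0.30). In that test 2.55% of all genes were called lower and 1.72% higher with TMM.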

How the data were processed

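Raw counts per gene came from a single table that the authors deposited, in which each row has a symbol, an Entrez identifier and an interval on mm10, per the file headers; 0 sample columns were left unused. The submitters' processing notes name STAR 2.5, Subread, featureCounts 1.5.0-p1, DESeq2 and mm10. Not given in the sources used here are the annotation, the use of strand and the handling of human or multiply mapping reads, so overlapping genes and near-identical copies are uncertain. Per the labels' protocols, RNA was extracted with Trizol and a column with DNase before library preparation by the TruSeq RNA v2 kit of Illumina.

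Groups and replicate numbers came from the sample titles. Genes were kept with filterByExpr by group (14808 genes, 99.99% of counts) and scaled with TMM. The test was the two-sided quasi-likelihood F test of edgeR 4.0.16 (R 4.3.3) in 1 model of 30 libraries with group means, with Benjamini-Hochberg adjustment over all genes tested for each of 19 contrasts. SE is the size of the log2 fold change over the square root of F. The common biological coefficient of variation was 0.0515. The code was tested on simulated counts. Replicate numbers were not used as pairs, and in 0 of 13 contrasts did every same-numbered pair correlate above 0.1. Their correlations ran from -0.118 to 0.151, the highest between untreated and OVA 30 min libraries in WT. This cut-off cannot exclude a weak pairing, and the labels do not say whether there was one.

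The 37 members, the other gene lists and the marker lists were chosen with earlier results of these data known. Per-library values are given for the 4 largest called rises and falls in a contrast (the higher group having 1 CPM or more) and for Atf4, Atf6, Ddit3, Xbp1, Ern1 and Eif2ak3; for other lists, up to 3 called genes in each direction by smallest p. Other per-library values (Hspa5, Herpud1, Asns and Mthfd2 where the rule did not name them) were chosen after the values were seen. Alternatives were DESeq2 1.42.0, other scalings and filters, a replicate block, only the groups compared, and leaving out each library. The scaling of the other gene lists was an alternative chosen after seeing the data.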

Additional observations from a re-analysis of the deposited data

Results flagged for a closer look

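For 6 members the response to 4 h of apoptotic Jurkat cells differed between the genotypes by edgeR's test of the interaction, given as KO minus WT on the log2 scale. Ddit4 was at 0.42 (FDR 0.00886), and its FDR stayed under 0.05 without each of the 12 libraries in turn. Asns was at -0.38 (FDR 0.0203), lost without 2 of 12 libraries (FDR up to 0.0603). Ddit3 was at -0.31 (FDR 0.0307), lost without 5 (up to 0.0889). Phgdh was at -0.23 (FDR 0.0403), lost without 11 (up to 0.0989). Edem1 was at -0.23 (FDR 0.0175), lost without 1, WT Jurkat 4 h replicate 2, where it was -0.16 (FDR 0.0525). Hspa5 was at -0.21 (FDR 0.0301), lost without 7 (up to 0.0853). The 16 low T-lineage markers summed to 0.686 times as much in KO as in WT libraries at that time, and the part this had in the 6 differences was not tested.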

How the results depend on the processing

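Of 215 calls of members over all contrasts, 211 held with DESeq2 size factors, 178 with total counts (22 lost, 15 reversed), 202 without the filter, 212 with DESeq2, 179 with only the groups compared, and 209 of 211 with at least 5 CPM in 3 libraries. The replicate block, within or across genotypes, kept 212 of 215. With only the groups compared, the count of members called was 3 for KO against WT untreated, 7 for KO against WT at Jurkat 4 h, 2 and 1 for OVA 30 min in WT and KO, 4 for Jurkat 30 min in KO, and 1 for KO minus WT at Jurkat 4 h, which was 2 with total counts. Total counts, which lower all values at Jurkat 4 h by construction, turned Xbp1 (-0.15), Hsp90b1 (-0.12), Dnajb9 (-0.25), Phgdh (-0.17) and Shmt2 (-0.084) in WT, Hsp90b1 (-0.17), Dnajb9 (-0.031) and Shmt2 (-0.092) in KO, and Sesn2 (-0.23), Xbp1 (-0.15), Hsp90b1 (-0.085), Pdia4 (-0.24), Dnajb9 (-0.064), Phgdh (-0.23) and Shmt2 (-0.19) in Jurkat against OVA at 4 h. Leaving out 1 library at a time, the counts ranged from 2 to 6 for KO against WT untreated, 5 to 9 at OVA 30 min, 4 to 6 at OVA 4 h, 2 to 5 at Jurkat 30 min and 8 to 12 at Jurkat 4 h, from 2 to 4 and 0 to 6 for OVA 30 min in WT and KO, 9 to 12 and 4 to 8 for OVA 4 h, 11 to 14 and 4 to 9 for Jurkat 30 min, and from 2 to 7 for KO minus WT at Jurkat 4 h. Over these removals 1442 of 1644 member calls held, 202 were lost and 0 reversed. Except for the scaling and the smaller numbers of samples, the causes were not tested. Depth limits Chac1 most, which had 1 count in the shallowest library.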
